A study of Homo sapiens with 12 samples.

Results

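The replication-dependent histone genes were measured in A673 cells, a human Ewing sarcoma line that carries the EWS-FLI1 fusion, in which part of EWSR1 is joined to the DNA-binding part of an ETS factor. They are the clustered core and linker histone genes, chosen by symbol as every gene of the H1, H2A, H2B, H3 and H4 clusters with a probe set assigned to that gene alone. This gave 55 genes of the 18404 tested, with 5 of class H1, 14 of H2A, 16 of H2B, 8 of H3 and 12 of H4. Of these, 48 lie in the large HIST1 cluster on chromosome 6, 4 in HIST2 and 2 in HIST3 on chromosome 1, and 1 in HIST4 on chromosome 12.

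Total RNA was hybridized to Affymetrix gene arrays, 12 in all and 2 per group. The knock-down groups received lentivirus with FLI1 shRNA or, as control, lacZ shRNA, directed at a bacterial gene, followed by puromycin, and are labelled 48 h. The drug groups were untreated cells at 0 h and cells given DMSO, 5 nM actinomycin D (ActD) or 50 nM ActD for 24 h. All groups share the cell line and its fusion gene, and the FLI1 shRNA can meet FLI1 sequence in both the fusion and any normal FLI1 transcript. The methods give duplicate treatment for DMSO and 5 nM ActD. For the knock-down, untreated and 50 nM groups the sources used here do not say whether both arrays came from separate cultures, so p-values reflect array-to-array spread, which there may be technical.

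Histone proteins package DNA: pairs of H2A, H2B, H3 and H4 form the nucleosome core, and H1 binds the linker DNA between cores. The clustered genes are transcribed mainly in S phase, when new DNA needs new histones, under the coactivator NPAT, and their transcripts end in a stem-loop bound by SLBP instead of a poly(A) tail. Actinomycin D binds DNA and blocks transcription, and the comparison of the drug with FLI1 knock-down asks how the drug's effect relates to loss of the fusion protein. In RNA from whole cultures, fewer cells in S phase and less histone RNA per S-phase cell cannot be told apart.

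Promoter windows of 250 bases before to 50 bases after the start were found for 50 of the 55 genes in RefSeq (GRCh38.p14), out of 35116 windows in all. The 5 shown belong to genes that the results turn on: H2AC17, H2AC14 and H3C3, with the largest rises after ActD in their classes, and H1-5 and H4C2, which fell in every treatment. Capitals mark the CCAAT box (CCAAT), the octamer (ATTTGCAT), the TATA box (TATAAA), the E2F site (TTTCGCGC) and the H1 box (AAACACA), each searched on both strands.
H2AC17 (chr6:27893136-27893435, - strand): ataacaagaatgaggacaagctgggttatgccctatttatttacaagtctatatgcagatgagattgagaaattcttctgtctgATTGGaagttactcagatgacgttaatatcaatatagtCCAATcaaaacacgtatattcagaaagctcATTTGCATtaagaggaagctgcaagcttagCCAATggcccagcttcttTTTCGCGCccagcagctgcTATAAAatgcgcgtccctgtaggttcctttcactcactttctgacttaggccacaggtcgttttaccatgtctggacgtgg
H2AC14 (chr6:27814728-27815027, - strand): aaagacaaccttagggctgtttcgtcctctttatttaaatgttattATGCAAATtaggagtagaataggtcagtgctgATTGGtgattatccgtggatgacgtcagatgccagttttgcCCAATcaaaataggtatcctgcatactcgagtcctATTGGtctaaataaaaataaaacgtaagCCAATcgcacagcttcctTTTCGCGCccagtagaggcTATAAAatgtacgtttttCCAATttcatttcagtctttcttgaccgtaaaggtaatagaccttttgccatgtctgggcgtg
H3C3 (chr6:26045134-26045433, + strand): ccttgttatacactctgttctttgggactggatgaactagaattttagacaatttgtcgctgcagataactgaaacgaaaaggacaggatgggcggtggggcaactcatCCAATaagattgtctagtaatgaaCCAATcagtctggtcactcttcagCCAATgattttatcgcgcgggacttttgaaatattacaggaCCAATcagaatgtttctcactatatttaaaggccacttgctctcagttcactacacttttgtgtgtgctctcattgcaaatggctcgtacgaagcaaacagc
H1-5 (chr6:27867539-27867838, - strand): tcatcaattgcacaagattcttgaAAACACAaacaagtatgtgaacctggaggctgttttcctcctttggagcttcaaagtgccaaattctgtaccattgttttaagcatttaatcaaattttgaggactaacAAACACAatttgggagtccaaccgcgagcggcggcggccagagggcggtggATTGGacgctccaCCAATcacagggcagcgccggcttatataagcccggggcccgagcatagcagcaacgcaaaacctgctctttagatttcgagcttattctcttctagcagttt
H4C2 (chr6:26027234-26027533, - strand): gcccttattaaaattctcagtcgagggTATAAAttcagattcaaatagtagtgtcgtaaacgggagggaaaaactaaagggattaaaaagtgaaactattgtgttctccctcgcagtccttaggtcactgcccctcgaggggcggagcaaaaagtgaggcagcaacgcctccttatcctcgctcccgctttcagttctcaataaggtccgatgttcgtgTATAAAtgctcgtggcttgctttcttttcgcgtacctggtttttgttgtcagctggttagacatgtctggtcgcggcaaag

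The motifs were spread unevenly over the classes. The octamer, a recognition sequence of POU factors known from H2B promoters, stood in 13 of 16 H2B and 10 of 13 H2A windows and in 0 of the H1, H3 and H4 windows, against 1.77% of all windows. The H1 box stood in 5 of 5 H1 windows, in 1 of 13 H2A windows (H2AC20) and in no other class, against 5.64% of all windows. CCAAT was present in all H1, H2A, H2B and H3 windows and in 3 of 10 H4 windows, against 34.6% overall. The E2F site was in 5 of 13 H2A, 5 of 16 H2B and 1 of 6 H3 windows, against 0.515% overall. A GGAA repeat (GGAAGGAA), the kind of sequence that ETS factors bind, was in 1 histone window, that of H4C6, against 3.67% overall. The TATA box was in 34 of the 50 windows, against 11.5% overall. Windows of divergently transcribed H2A and H2B partners overlap, and both strands were searched, so a shared site counts for both genes. The H2A and H2B counts are therefore not independent.

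The normalized arrays had medians of 6.67 to 6.83 on the log2 scale and correlations of 0.994 to 0.996 within groups. RMA normalization brings arrays to a common scale, so these medians cannot show whether total RNA changed. Rises and falls are relative to the other genes on the arrays. FLI1 itself read 7.30 and 7.08 with FLI1 shRNA against 8.63 and 8.45 with lacZ shRNA, a log2 change of -1.35 (SE 0.095, limma adjusted p = 5.4e-06). Of 8 measured Ewing sarcoma markers, 6 or 7 lay above the all-gene median in every group, and 0 of 5 blood and 0 of 5 endothelial markers did, while 2 of 6 epithelial markers did. The endothelial receptor gene KDR rose by 1.85 after FLI1 shRNA, and its part in any histone result was not tested. Among the histone genes, 9 were dim, below the 40th percentile of mean level (log2 6.82): H2AC1, H2AC13, H2BC1, H2BC6, H2BC11, H2BC26, H4C7, H4C9 and H4C16. Many clustered genes code for near-identical proteins, and how far a probe set also reads transcripts of such copies was not tested.

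**Figure D1:**
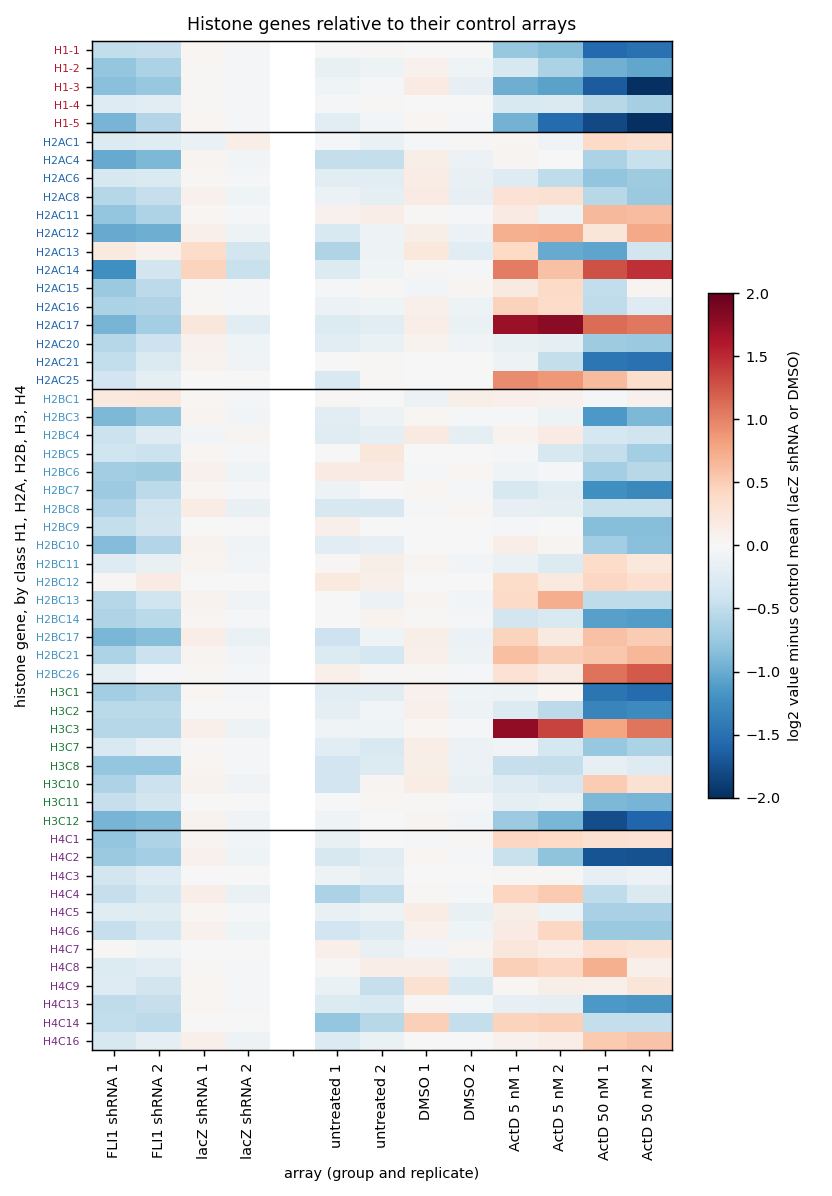
Log2 value on each of the 12 arrays minus the mean of the control arrays (lacZ shRNA for the 4 knock-down arrays, DMSO for the 8 drug arrays) for the 55 histone genes, in rows by class, with blue lower and red higher. The FLI1 shRNA columns are blue in nearly all rows, whereas the ActD columns hold both colours and the 5 H1 rows are blue at both doses.

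After FLI1 knock-down histone transcripts were lower in all 5 classes. Of the 55 genes, 39 fell and 0 rose with FLI1 shRNA against lacZ shRNA (adjusted p under 0.05 by limma over all 18404 genes), where 9.28% of all genes fell and 14.6% rose. The median log2 change was -0.51 against -0.01 over all genes, and 52 of 55 values were negative. The falls were moderate, between -0.23 and -0.99, and 0 genes fell or rose by over 2-fold with adjusted p under 0.01, where 0.598% of all genes fell and 1.21% rose that far by limma. An unadjusted limma p under 0.05 was found for 48 of the 55 and for 6362 of all 18404 genes. By class, 5 of 5 H1, 9 of 14 H2A, 12 of 16 H2B, 7 of 8 H3 and 6 of 12 H4 genes fell. Both FLI1 shRNA arrays lay below both lacZ shRNA arrays for 50 of the 55 genes, against 29.7% of all genes. Without FLI1 shRNA replicate 1 the count of genes that fell was 25, and it was 36 at most when any other knock-down array was left out.

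All 5 clustered linker histone genes fell with FLI1 shRNA. H1-1 read 9.95 and 9.97 with FLI1 shRNA against 10.47 and 10.40 with lacZ shRNA, a log2 change of -0.48 (SE 0.069, adjusted p = 0.00059). H1-3 read 8.69 and 8.76 against 9.55 and 9.49, a change of -0.80 (SE 0.14, adjusted p = 0.0019). H1-2, another somatic linker variant, changed by -0.71 (SE 0.107, adjusted p = 0.00072). The arrays of the groups did not overlap for any of the 5. H1-5 changed by -0.77 but had arrays of 10.53 and 10.88 with FLI1 shRNA, and the call was lost without FLI1 shRNA replicate 1 (-0.59, adjusted p = 0.1) or lacZ shRNA replicate 1 (-0.73, adjusted p = 0.059). H1-4 changed by -0.23, and that call was lost when any knock-down array was left out (adjusted p 0.073 to 0.17).

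The core histones with the largest falls came from each class. H2AC12 read 7.19 and 7.22 with FLI1 shRNA against 8.29 and 8.10 with lacZ shRNA, a change of -0.99 (SE 0.153, adjusted p = 0.00087). H3C12 read 8.63 and 8.69 against 9.64 and 9.49, a change of -0.91 (SE 0.1, adjusted p = 1e-04). H2BC17 changed by -0.89 and H4C2 by -0.71, each with arrays that did not overlap. H2AC14 averaged -0.80, but its FLI1 shRNA arrays (5.17 and 6.02) overlapped its lacZ shRNA arrays (6.84 and 5.95), and it did not pass (adjusted p = 0.078). The 3 genes with positive values were H2BC1 (0.20), H2AC13 (0.14) and H2BC12 (0.09), none of which passed. Probe sets that H2AC13 and H2BC12 share with other symbols, outside the main test, fell. The set for H3C10 and H2AC13 changed by -0.91, and the set for H2BC12, H2BC12L, H2BC17 and H2BC5 by -0.35.

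Other core genes moved in the same direction. H2BC3 read 8.16 and 8.29 with FLI1 shRNA against 9.11 and 9.01 with lacZ shRNA, a change of -0.84 (SE 0.094, adjusted p = 0.00012). H4C13 read 11.23 and 11.28 against 11.78 and 11.71, a change of -0.49. H2AC4, second in its class, read 8.43 and 8.54 against 9.49 and 9.39, a change of -0.95 (SE 0.094, adjusted p = 4.7e-05). In each case the arrays of the groups stood apart. By cluster, 36 of 48 HIST1 and 3 of 4 HIST2 genes fell, and 0 of 2 HIST3 genes and 0 of 1 HIST4 gene did. The share over all genes was 9.28%. The HIST3 and HIST4 genes were also below 0 without passing, at -0.28 for H2AC25, -0.12 for H2BC26 and -0.26 for H4C16.

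**Figure D2:**
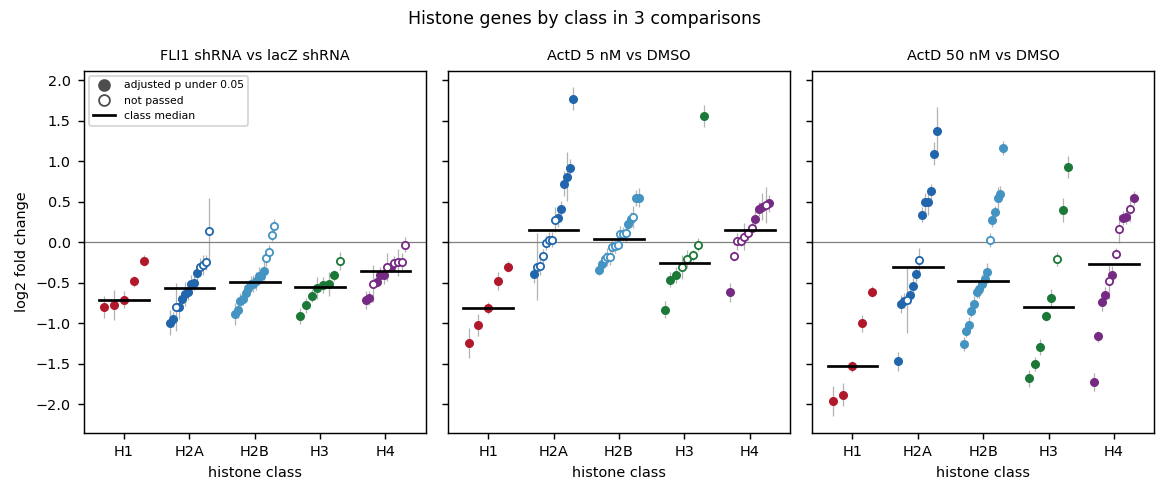
Log2 fold change with its standard error for each histone gene, by class (filled, adjusted p under 0.05; open, not passed; bar, class median), in FLI1 shRNA over lacZ shRNA, ActD 5 nM over DMSO and ActD 50 nM over DMSO. Class medians lie between -0.71 and -0.36 in the knock-down. The range within the core classes is wider after ActD, except for H2B at 5 nM (-0.34 to 0.55, against -0.89 to 0.2 in the knock-down).

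At 5 nM ActD some histone genes rose and others fell. Against DMSO, 15 rose and 12 fell, where 30.3% of all genes rose and 23% fell, and the median change was 0.01 against 0.12 over all genes. Neither share of the 55 stood above that background. All 5 H1 genes fell, with a median of -0.81. Of the H2A genes 6 rose and 1 fell, of H2B 4 rose and 2 fell, of H3 1 rose and 3 fell, and of H4 4 rose and 1 fell. When each array was centred on ribosomal protein genes, 3 rose and 33 fell, where 9.22% of all genes rose and 44.3% fell. The all-gene median moved to -0.23, so the count of rises depends on the scaling and the H1 falls do not: 5 of 5 fell under both.

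The clustered linker histones fell with rising dose. H1-1 read 10.65 on both DMSO arrays, 9.89 and 9.80 at 5 nM and 9.09 and 9.16 at 50 nM. Its changes against DMSO were -0.81 at 5 nM (SE 0.069, adjusted p = 2.8e-06) and -1.53 at 50 nM (SE 0.069, adjusted p = 9e-08). H1-5 read 11.87 and 11.79 in DMSO, 10.88 and 10.29 at 5 nM and 10.03 and 9.69 at 50 nM, with changes of -1.24 and -1.96. H1-3 changed by -1.02 and -1.88, H1-2 by -0.48 and -1.0, and H1-4 by -0.30 and -0.61. Between the doses all 5 fell as well, with changes of -0.31 to -0.86 at 50 nM relative to 5 nM. The call of H1-5 between doses was lost without ActD 5 nM replicate 1 (-0.43) or ActD 50 nM replicate 2 (-0.55), each at adjusted p = 0.068.

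A few core histones rose strongly at 5 nM. H2AC17 read 9.44 and 9.51 at 5 nM against 7.84 and 7.58 in DMSO, a change of 1.77 (SE 0.143, adjusted p = 1.8e-06). H3C3 read 9.09 and 8.66 against 7.35 and 7.28, a change of 1.56 (SE 0.136, adjusted p = 3.1e-06). These were the 2 histone genes that rose over 2-fold at adjusted p under 0.01, where 2.64% of all genes did. H1-3 and H1-5 were the 2 that fell that far, where 7.86% of all genes did. H2BC13 rose by 0.55 and H4C4 by 0.48, and neither call held with ribosomal protein centring (0.20 and 0.13). H3C12 fell by 0.83 to 9.41 and 9.21 at 5 nM, against 10.19 and 10.07 in DMSO, H4C2 fell by 0.62, and H2BC14 by 0.34. H2AC6 changed by -0.39, a call lost without ActD 5 nM replicate 2 (-0.26) or DMSO replicate 1 (-0.24).

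By position, all 12 falls at 5 nM lay in HIST1, which holds 48 of the 55 genes and where 12 rose. Over all genes 30.3% rose and 23% fell, so the HIST1 counts lay near the background. Both HIST3 genes rose. H2AC25, a HIST3 gene, read 8.18 and 8.10 at 5 nM against 7.23 on both DMSO arrays, a change of 0.91 (SE 0.121, adjusted p = 8.7e-05). H2BC21, a HIST2 gene, read 10.20 and 10.09 against 9.71 and 9.5, a change of 0.54. With ribosomal protein centring H2AC25 still rose (0.55), whereas H2BC21 (0.19) and the other HIST3 gene, H2BC26 (-0.12), did not pass. With 2 and 4 genes these clusters give counts only.

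At 50 nM the falls outnumbered the rises. Against DMSO, 31 genes fell and 16 rose, where 23.3% of all genes fell and 25.8% rose, and the median change was -0.51 against 0.10 over all genes. Beyond 2-fold at adjusted p under 0.01, 13 were lower and 3 higher, against 5.38% and 0.598% of all genes. With ribosomal protein centring 35 fell and 7 rose, where 38% of all genes fell and 5.31% rose. By class, 5 of 5 H1, 6 of 14 H2A, 10 of 16 H2B, 5 of 8 H3 and 5 of 12 H4 genes fell, and 0, 6, 5, 2 and 3 rose.

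The falls at 50 nM reached into every class. H4C2 read 9.35 and 9.33 at 50 nM against 11.11 and 11.03 in DMSO, a change of -1.72 (SE 0.113, adjusted p = 7.8e-07). H3C12 read 8.35 and 8.55 against 10.19 and 10.07, a change of -1.68 (SE 0.1, adjusted p = 4.4e-07). H2AC21 read 10.16 and 10.12 against 11.62 and 11.60, a change of -1.47, and H2BC7 changed by -1.26. In all of these both 50 nM arrays lay below both DMSO arrays.

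Other core genes rose at 50 nM. H2AC14 read 8.31 and 8.49 against 7.06 and 7.00 in DMSO, a change of 1.37 (SE 0.298, adjusted p = 0.0034). H2BC26, a dim gene of the HIST3 cluster, read 7.53 and 7.67 against 6.47 and 6.42, a change of 1.16 (SE 0.085, adjusted p = 1.7e-06). H3C3 changed by 0.93 and H4C16, also dim, by 0.55. At 5 nM H2AC14 changed by 0.81 and H2BC26 by 0.23. Those 5 nM calls were lost without ActD 5 nM replicate 1 (0.59 and 0.16) and without either DMSO array, and with ribosomal protein centring H2BC26 stood at -0.12.

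**Figure D3:**
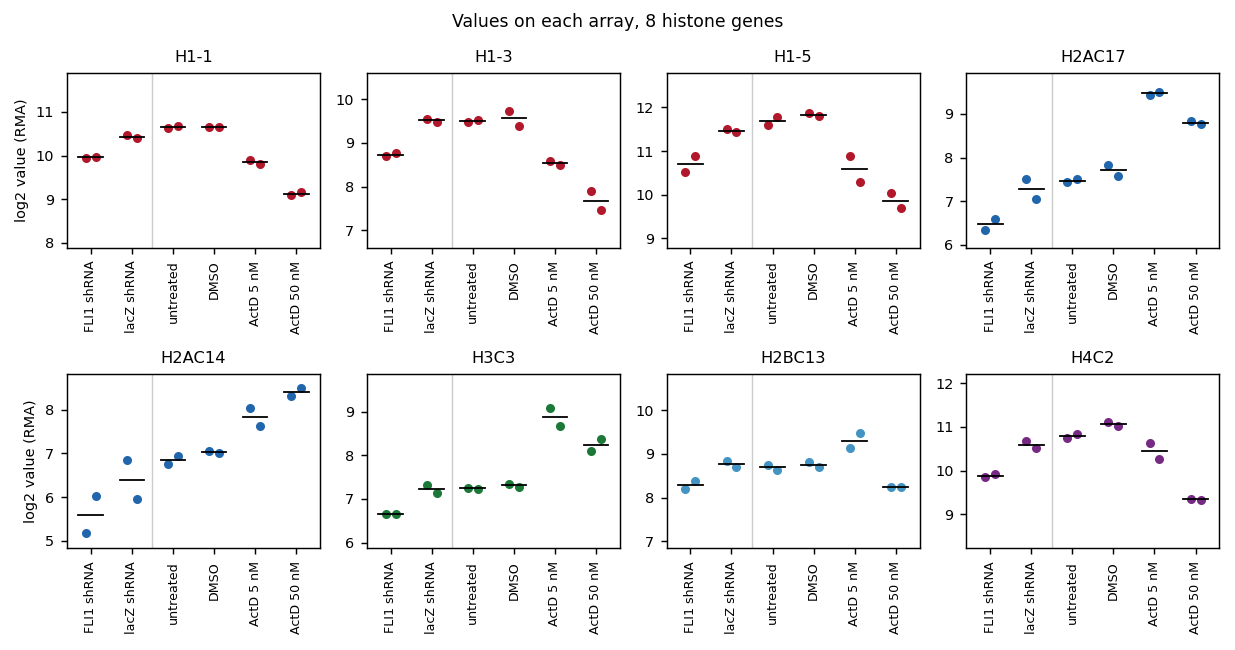
Log2 value on each array (points) and group mean (lines) for 8 histone genes across the 6 groups, with a span of 4 log2 units on each vertical axis. The H1 genes step down from DMSO to 5 nM and 50 nM, H2AC17 and H3C3 peak at 5 nM, and H2BC13 is above DMSO at 5 nM and below it at 50 nM.

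The direct comparison of doses held 35 falls and 7 rises at 50 nM relative to 5 nM, where 23.1% of all genes fell and 21.6% rose. Over 2-fold with adjusted p under 0.01, 5 fell and 0 rose, where 6.65% and 4.33% of all genes did. H3C1 read 8.96 and 8.88 at 50 nM against 10.32 and 10.45 at 5 nM, a change of -1.47 (SE 0.082, adjusted p = 1.2e-07), although it had changed by -0.03 at 5 nM against DMSO. H2BC13 changed by -1.06 and H4C2 by -1.10 between the doses. The largest rise in each core class was that of H2BC26 (0.93), H3C10 (0.69), H2AC11 (0.60) and H4C16 (0.44). A probe set shared by H3C10 and H2AC13, outside the main test, went the other way at -0.53 (limma adjusted p = 0.013 over all rows). Of the 55 genes, 11 fell at 5 nM, at 50 nM and between the doses, all 5 H1 genes among them. Another 14 did not pass at 5 nM and fell in the other 2 comparisons, and 5 rose at 5 nM, fell at 50 nM and fell between the doses: H2AC8, H2AC16, H2BC13, H4C4 and H4C6. The comparisons with DMSO share the DMSO arrays, and both use arrays of the contrast between doses. These joint patterns were not counted over all genes, so they have no background share.

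Genes that turned with dose came from 3 classes. H2BC13 read 8.81 and 8.70 in DMSO, 9.13 and 9.48 at 5 nM and 8.24 and 8.25 at 50 nM. H2AC16 read 10.22 and 10.01, 10.57 and 10.48, and 9.60 and 9.86 at the same doses. H4C6, the gene with the GGAA repeat in its window, read 10.63 and 10.45, 10.71 and 10.95, and 9.79 and 9.80. Each was highest at 5 nM and lowest at 50 nM on both arrays. The rises at 5 nM depended on the scaling: with ribosomal protein centring none of the 5 genes passed there, at 0.20 for H2BC13, 0.13 for H4C4, 0.06 for H2AC16, -0.06 for H4C6 and -0.06 for H2AC8, while all 5 still fell at 50 nM and between the doses. For H4C4 the fall at 50 nM (-0.40) was lost without ActD 50 nM replicate 1 (-0.29) or DMSO replicate 1 (-0.38). H3C8 went the other way, at 9.82 and 9.59 in DMSO, 9.25 and 9.23 at 5 nM and 9.54 and 9.44 at 50 nM, with a fall of 0.46 at 5 nM and a rise of 0.25 between the doses.

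The knock-down and 5 nM ActD, which have separate control arrays, differed for 30 histone genes. The experiments also differ in duration (48 h against 24 h) and in delivery (lentivirus with puromycin). These cannot be told apart from the treatments themselves. The knock-down change minus the 5 nM change was below 0 for 29 of the 55 (adjusted p under 0.05 for the difference itself) and above 0 for 1, H1-1, where 23.7% and 22.8% of all genes were called. For H2AC17 the difference was -2.57 (SE 0.202, adjusted p = 2.7e-06), from -0.80 with FLI1 shRNA and 1.77 at 5 nM. For H3C3 it was -2.13 (SE 0.192, adjusted p = 7.1e-06), from -0.57 and 1.56. The knock-down call of H3C3 was lost without either FLI1 shRNA array (-0.57 each, adjusted p = 0.059 and 0.058) or lacZ shRNA replicate 1 (-0.47). For H2AC12 it was -1.71, from -0.99 and 0.72. For H1-1 it was 0.33 (SE 0.098, adjusted p = 0.018), from -0.48 and -0.81. The other 4 H1 genes had differences of -0.23 to 0.48 that did not pass. Over 2-fold at adjusted p under 0.01, 10 differences were negative and 0 positive by limma, where 3.39% and 9.75% of all genes were. With ribosomal protein centring 16 genes were below 0 and 7 above it, where 7.07% and 38.6% of all genes were. Of those 7, 4 were H1 genes: H1-5 (0.84), H1-1 (0.70), H1-3 (0.59) and H1-4 (0.43). Across the 55 genes the 2 sets of changes had a Spearman correlation of 0.05 (Pearson 0.02), against a Spearman correlation of -0.04 over all genes, as a description over genes that are not independent.

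**Figure D4:**
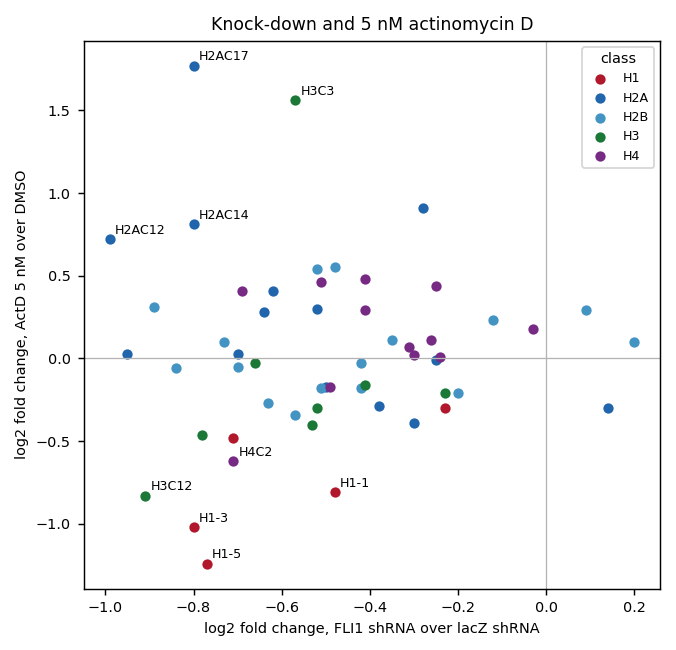
Log2 fold change at ActD 5 nM over DMSO (vertical) against FLI1 shRNA over lacZ shRNA (horizontal) for the 55 histone genes, coloured by class. Most genes lie left of 0, with H2AC17 and H3C3 at the top and the H1 genes below 0 on both axes.

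Combining the 3 treatments with their calls, 10 genes fell with FLI1 shRNA, at 5 nM and at 50 nM: the 5 H1 genes, H2BC7, H2BC14, H3C2, H3C12 and H4C2. A further 13 fell with FLI1 shRNA and at 50 nM without passing at 5 nM. Another 5 fell with FLI1 shRNA and rose at both doses: H2AC12, H2AC17, H2BC21, H3C3 and H4C1. With ribosomal protein centring only H2AC17 and H3C3 of these 5 rose at both doses. H2AC12 (0.37 at 5 nM and 0.24 at 50 nM) and H4C1 (0.05 at each dose) then passed at neither, and H2BC21 passed at 50 nM (0.34) and not at 5 nM (0.19). H2AC12 also lost its call at 50 nM without ActD 50 nM replicate 2 (0.23) or DMSO replicate 2 (0.38). The 4 genes that passed in none were H2AC13, H2BC1, H4C9 and H4C14. How many of all genes share each of these patterns was not counted, so whether the overlaps exceed the background was not tested.

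Several H2A and H2B genes are divergently transcribed from starts 215 to 248 bases apart, 9 pairs in all. H2AC14 changed by 0.81 at 5 nM and 1.37 at 50 nM while H2BC14, its partner 245 bases away, changed by -0.34 and -1.10. H2BC21 changed by 0.54 and 0.60, and its partner H2AC20 by -0.17 and -0.72. With FLI1 shRNA these pairs stood at -0.80 with -0.57 and at -0.52 with -0.50. The partners named here were chosen after their values were seen, and the differences within pairs were not tested. Probe sets that H2BC21 shares with other symbols were mixed at 5 nM and 50 nM. The set with H2BC18 and H2BP1 changed by 0.9 and 0.99, and the set with H2BC19P and H2BC20P by 0.08 and -0.16, neither passing. The set that H2AC20 shares with H2AC18, H2AC19 and H2AC21 changed by 0.26 and -0.57. In each pair the promoter windows of the partners overlap on opposite strands, that of H2AC14 with that of H2BC14 among them.

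The control comparisons moved few histone genes. Against untreated cells, DMSO gave 0 rises and 0 falls by limma among the 55, where 0.00543% of all genes rose and 0% fell. An unadjusted limma p under 0.05 was reached by 12 of the 55 and by 1383 of all 18404 genes. With eBayes trend and robust estimation 3 of the 55 were higher, where 0.0761% of all genes rose and 0.103% fell. The values were on average positive, with a median of 0.14 and 41 of 55 above 0. Against untreated cells, lacZ shRNA gave 2 rises, H2AC4 (0.44) and H4C14 (0.96), and 1 fall, H3C12 (-0.52), where 0.815% of all genes rose and 2.26% fell. Over 2-fold at adjusted p under 0.01 there were 0 rises and 0 falls, where 0.038% and 0.0326% of all genes were called. None of the 3 calls held when any array of the comparison was left out. H4C14 read 12.50 and 12.52 with lacZ shRNA and 12.69 and 11.73 in DMSO, against 11.44 and 11.65 in untreated cells, so its DMSO arrays stood 1 high and 1 low.

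Genes of S phase and of histone synthesis were also called in each treatment. Of 29 measured S-phase genes, 28 fell and 0 rose with FLI1 shRNA (median -0.79), 16 fell and 4 rose at 5 nM, and 15 fell and 1 rose at 50 nM. Over all genes 9.28% fell and 14.6% rose with FLI1 shRNA, 23% fell and 30.3% rose at 5 nM, and 23.3% fell and 25.8% rose at 50 nM. The part of S-phase content in the histone changes was not tested. MCM2, a subunit of the replicative helicase, changed by -1.20 with FLI1 shRNA and E2F1, a transcription factor of S-phase entry, by -1.23. PRIM1, a primase subunit, changed by -2.53 at 5 nM, and DTL, a ubiquitin ligase adaptor, by -1.33 at 50 nM.

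Of 27 genes of histone transcription and 3′ processing, 9 fell and 3 rose with FLI1 shRNA, 8 fell and 10 rose at 5 nM, and 15 fell and 1 rose at 50 nM. The shares of all genes were 9.28% and 14.6% with FLI1 shRNA, 23% and 30.3% at 5 nM and 23.3% and 25.8% at 50 nM, in the same order, so the 5 nM counts lay near the background. NPAT, the histone gene coactivator, read 7.94 and 7.86 at 50 nM against 9.73 and 9.65 in DMSO, a change of -1.79 (SE 0.087, adjusted p = 1.3e-07), and changed by -1.20 at 5 nM. ZNF473, a zinc finger protein of the U7 processing machinery, changed by -1.64 at 50 nM and CASP8AP2, which codes for the processing factor FLASH, by -1.47. With FLI1 shRNA the largest changes were those of the cyclins CCNE2 (-1.70) and CCNE1 (-1.15) and of the cap-binding subunit NCBP1 (-1.24). SLBP, chosen after its values were seen, changed by -0.44 with FLI1 shRNA, 0.42 at 5 nM and -0.71 at 50 nM.

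Of 23 histone chaperones, 8 fell and 1 rose with FLI1 shRNA, 12 fell and 4 rose at 5 nM, and 11 fell and 2 rose at 50 nM. Beside these counts and those of the variants stand falls of 9.28%, 23% and 23.3% and rises of 14.6%, 30.3% and 25.8% over all genes with FLI1 shRNA, at 5 nM and at 50 nM. The replication-coupled assembly subunits CHAF1B and CHAF1A changed by -0.81 and -0.71 with FLI1 shRNA, the remodeller ATRX by -2.0 and its partner DAXX by 1.26 at 5 nM, and the centromeric chaperone HJURP by -1.52 at 50 nM. Of 10 measured histone variants encoded outside the clusters, 2 fell and 0 rose with FLI1 shRNA, 2 fell and 6 rose at 5 nM, and 1 fell and 5 rose at 50 nM. H2AX was among the falls with FLI1 shRNA (-0.36) and was the fall at 50 nM (-0.71). H2AJ, a replacement H2A, changed by 1.56 at 50 nM, H3-5 by 1.09 at 5 nM, and MACROH2A2 by -0.70 with FLI1 shRNA and -1.42 at 5 nM. H1-10, a linker histone among these variants, did not follow the clustered H1 genes and changed by 0.7 at 5 nM. It read 9.16 and 9.08 at 50 nM against 8.83 and 8.97 in DMSO. With FLI1 shRNA it read 8.6 and 8.53 against 8.59 and 8.53 with lacZ shRNA. The difference between these lists and the clustered genes was not tested.

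**Figure D5:**
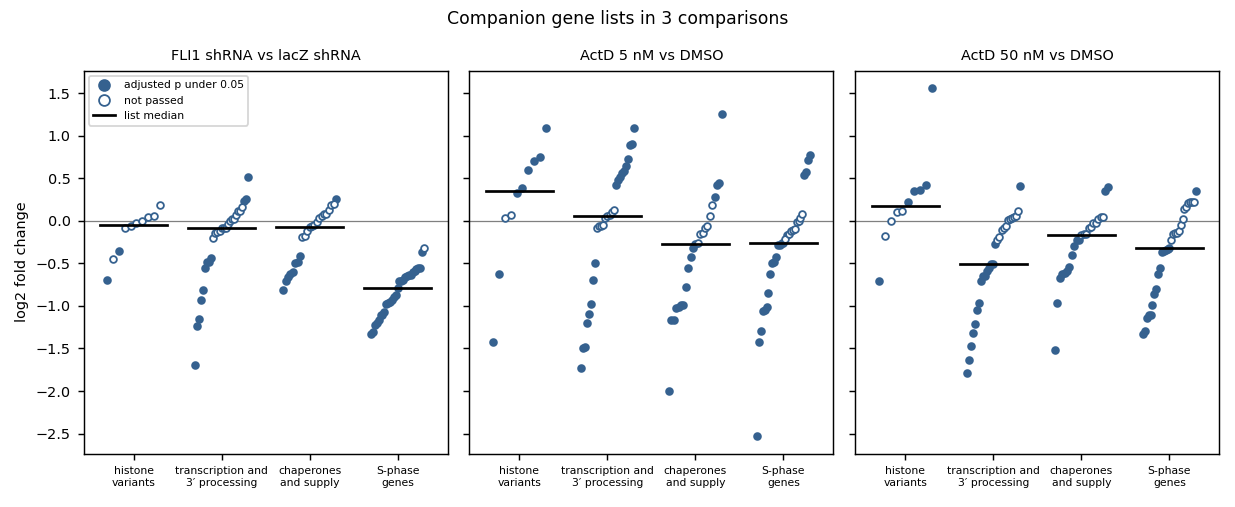
Log2 fold change of each measured gene in 4 companion lists (filled, adjusted p under 0.05; open, not passed; bar, list median) in FLI1 shRNA over lacZ shRNA, ActD 5 nM over DMSO and ActD 50 nM over DMSO. All 29 S-phase genes lie below 0 in the knock-down, with a median of -0.79.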

How the data were processed

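RNA of A673 cells was measured on 12 arrays, 2 in each of 6 groups taken from the labels. Values were used as the authors deposited them, on a log2 scale after background correction and RMA with the affy package, whose version, like the priming used for labelling, was not given in the sources. The number of arrays limits the precision. Every value column matched a sample.

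Of 32321 rows, 19158 had 1 gene symbol, 1388 several and 11775 none. Where 637 genes had over 1 probe set, the one with the highest mean was used, which left 18404 genes. Group means were fitted in R 4.3.3 with limma 3.58.1 (lmFit and eBayes, all 12 arrays, 6 residual and 4.45 prior degrees of freedom), and p-values were adjusted by Benjamini-Hochberg over all genes in each of 7 comparisons. A gene rose or fell at adjusted p under 0.05, and the methods' thresholds (over 2-fold, adjusted p under 0.01) gave further counts. The fit was tested on simulated data.

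The histone genes, gene lists and tests were chosen with earlier results of these data known. Genes were named by rule: all H1 genes, the largest rise and fall of each core class per comparison among called genes with separate arrays, and at most 4 genes per companion list. Others named were chosen after their values were seen. Motifs were searched as exact letters in RefSeq promoter windows (GRCh38.p14).

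Alternatives were a replicate block, a fit to the compared arrays alone, removal of dim genes, the mean over probe sets, all rows, quantile normalization again, centring on 57 ribosomal protein genes, trend and robust eBayes, each array left out and the methods' thresholds. A first list for that centring held 64 symbols, paralogs included. It was narrowed to 57 after its results had been seen, and both are reported. A crossed replicate block was also added after the values were seen.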

Additional observations from a re-analysis of the deposited data

Results flagged for a closer look

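The change with FLI1 shRNA differed from the change at 5 nM ActD, by the test of the difference itself in limma, for 15 of the named histone genes. Core genes were named for large changes in comparisons that include these same arrays. Large differences among them were thus favoured in advance, and the count is only a list. Among all 55 histone genes 29 differences were below 0 and 1 above it, where 23.7% and 22.8% of all genes were called. Each value is the knock-down log2 change minus the 5 nM log2 change. In class H2A it was -2.57 for H2AC17, -1.71 for H2AC12, -1.61 for H2AC14, -0.98 for H2AC4 and -0.73 for H2AC11. In class H2B it was -1.20 for H2BC17, -1.03 for H2BC13, -0.35 for H2BC7 and -0.35 for H2BC26. In class H3 it was -2.13 for H3C3 and -0.63 for H3C1. In class H4 it was -0.97 for H4C14, -0.89 for H4C4 and -0.37 for H4C16. H1-1 was the only one of these with a positive value, 0.33. The calls of H2BC7, H2BC26, H4C14 and H4C16 were each lost in several of the settings described below, H3C1 lost its call with ribosomal protein centring (-0.26), and that of H1-1 was lost without FLI1 shRNA replicate 2 (0.32) or lacZ shRNA replicate 2 (0.29).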

How the results depend on the processing

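With 2 arrays per group, an arm left with 1 array was assumed to vary like the other groups. Leaving out each array gave 25 to 36 falls and 0 rises with FLI1 shRNA, 10 to 15 rises and 9 to 15 falls at 5 nM, 11 to 15 rises and 28 to 33 falls at 50 nM, 5 to 6 rises and 31 to 35 falls between doses, 0 to 1 rises and 0 falls for DMSO against untreated, 0 and 0 for lacZ shRNA against untreated, and 21 to 29 negative and 0 to 2 positive differences between knock-down and 5 nM. Centring on 57 ribosomal protein genes gave 3 rises and 33 falls at 5 nM, 7 rises at 50 nM, and 7 positive and 16 negative differences. The shares of all genes were 9.22%, 44.3%, 5.31%, 38.6% and 7.07%, in the same order. The wider list of 64, run first and narrowed after its results were seen, gave the same 3, 33, 7, 7 and 16. The centring reversed H2BC26 at 5 nM (-0.12, wider list -0.13), CD99 (-0.01, wider -0.04) and EWSR1 (-0.06, wider -0.09) at 50 nM, and the differences of H2BC7 and H2BC26 (both 0.01, wider 0.03). Only the wider list reversed CDH5 at 5 nM (0.00) and the difference of H4C16 (0.02). The methods' thresholds left 0 falls with FLI1 shRNA, 2 rises and 2 falls at 5 nM, 3 rises and 13 falls at 50 nM, 0 rises and 5 falls between doses, 0 rises and 0 falls for lacZ shRNA against untreated, and 0 positive and 10 negative differences. Quantile normalization again gave 1 rise with FLI1 shRNA, 2 positive differences and 1 rise for lacZ shRNA against untreated. Without dim genes, 3 rose between doses and 4 fell with lacZ shRNA against untreated. Trend and robust estimation gave 3 rises for DMSO against untreated and 5 falls for lacZ shRNA against untreated, where only the arrays compared gave 1 rise and 0 falls and all rows gave 0 and 0. The cause of these shifts was not tested.

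Replicate differences correlated at -0.45 to 0.17 between groups, so the numbers do not pair the arrays. The replicate block gave 38 falls with FLI1 shRNA, 13 rises and 12 falls at 5 nM, 16 and 31 at 50 nM, 7 and 35 between doses, and 0 rises for lacZ shRNA against untreated. A crossed replicate block, added after the values were seen, gave 46 falls with FLI1 shRNA, 0 and 0 for DMSO against untreated, and 4 rises and 3 falls for lacZ shRNA against untreated.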

Other observations

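A further 17 probe sets carry a clustered histone symbol together with at least 1 other symbol and stood outside the main test. Adjusted over all 32321 rows, 9 fell and 0 rose with FLI1 shRNA, where 6.01% of all rows fell. At 5 nM 8 rose and 1 fell, where 25.4% of all rows rose, and at 50 nM 5 rose and 7 fell, where 23.4% rose and 16.9% fell. The probe set for H3C11 and H3C6 changed by 1.96 at 50 nM, whereas the probe set for H3C11 alone changed by -0.91. The probe set for H4C15 and H4C14 changed by -0.96 with FLI1 shRNA, 0.99 at 5 nM and 1.60 at 50 nM. These probe sets were chosen after their values were seen.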
